A study of Mus musculus with 6 samples.

Results

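The complement genes C1qa, C1qb, C1qc, C1ra, C1s1, C3, C4b, Serping1 and Cd55 were followed in heart ventricle RNA from mice fed western diet (WD). These 9 genes were chosen by name and matched to Ensembl identifiers through GENCODE M21, and all 9 were among the 54232 genes of the count files. The mice were wild-type C57BL/6J on WD for 15 weeks, then needle-fed for 3 weeks with either Tributyrin at 5 g/kg body weight (n = 3) or vehicle (n = 3), which the sample labels call PBS. Tributyrin is a glycerol ester of butyrate, a short-chain fatty acid made by gut bacteria. Both groups were on WD, so the comparison is of Tributyrin against vehicle within WD, and mice on normal chow were not analysed here. The sample labels give no sex, and all 6 libraries held at least 1571 reads of the Y-linked gene Ddx3y and at most 6 reads of Xist. Each library is 1 mouse.

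Complement is a cascade of plasma and membrane proteins. In the classical pathway C1q, built from the chains A, B and C, binds its target and activates the proteases C1r and C1s, which cleave C4 and C2 to form an enzyme that cleaves C3. C1 inhibitor stops C1r and C1s, and CD55, also called decay-accelerating factor, takes apart the C3-cleaving enzymes on the cell's own membrane. The liver makes most plasma complement, while in many tissues macrophages are a main source of C1q and fibroblast-like cells express C1r, C1s, C3 and C1 inhibitor.

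Libraries held between 20369746 and 32734485 reads on genes, and mitochondrial transcripts took 23.58% to 28.78% of them. Ventricular cardiomyocyte markers summed to between 45980 and 51430 CPM (reads scaled to library size) and were high in every library. Of 5 hepatocyte markers, Alb and Serpina1a had 0 reads in all libraries and the summed level was at most 0.566 CPM. Atrial markers (6 genes) summed to 182, 172.5 and 53.84 CPM in vehicle replicates 1, 2 and 3 and to 31.04, 64.36 and 46.26 CPM in Tributyrin replicates 1, 2 and 3, so vehicle replicates 1 and 2 stood apart. Their part in the results below was not tested.

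The genes lie in the GRCm38 annotation as follows. The C1q chains form a cluster on the minus strand of chromosome 4, with C1qb (ENSMUSG00000036905) at chr4:136880129-136886187, C1qc (ENSMUSG00000036896) at chr4:136889804-136893065 and C1qa (ENSMUSG00000036887) at chr4:136895917-136898803. Only 3616 bases separate C1qb from C1qc, and 2851 bases separate C1qc from C1qa. C1ra (ENSMUSG00000055172, plus strand, chr6:124512405-124523443) and C1s1 (ENSMUSG00000038521, minus strand, chr6:124530345-124542359) are neighbours 6901 bases apart. C4b (ENSMUSG00000073418, chr17:34728380-34743882) and C3 (ENSMUSG00000024164, chr17:57203970-57228136) lie on the minus strand of chromosome 17. Serping1 (ENSMUSG00000023224, chr2:84765387-84775444) and Cd55 (ENSMUSG00000026399, chr1:130439027-130462744) are on the minus strand too. Annotated genes on the opposite strand overlap exons of C1s1 (Gm16567) and Cd55 (Gm16083), and both had 0 reads.

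Promoter sequences are shown for C1qb and C1qc, which varied together between mice, for C3, which with C4b varied most between mice, and for Cd55, the member that separated the groups. They come from RefSeq on GRCm38.p6 and run 5′ to 3′ on the gene's strand over 300 bases, 250 before the transcription start and 50 after. The positions are chr4:136886151-136886450 (C1qb), chr4:136892865-136893164 (C1qc), chr17:57228087-57228386 (C3) and chr1:130462695-130462994 (Cd55), all on the minus strand. Entries were found for 6 of the 9 genes, and C1qa, C4b and Serping1 had none. Capitals mark every match, on either strand, to 6 motifs: GC box GGGCGG, PU.1 core GAGGAA, C/EBP TTGCNNAA, TATA box TATAAA, GAS TTCNNNGAA and the interferon-stimulated response element (ISRE). No matches overlapped in these windows.
C1qb: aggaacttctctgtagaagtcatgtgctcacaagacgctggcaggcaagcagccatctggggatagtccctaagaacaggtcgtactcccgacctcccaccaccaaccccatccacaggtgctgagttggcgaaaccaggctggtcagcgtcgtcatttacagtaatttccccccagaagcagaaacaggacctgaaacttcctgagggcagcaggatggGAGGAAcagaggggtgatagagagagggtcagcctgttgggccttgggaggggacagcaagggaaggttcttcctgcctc
C1qc: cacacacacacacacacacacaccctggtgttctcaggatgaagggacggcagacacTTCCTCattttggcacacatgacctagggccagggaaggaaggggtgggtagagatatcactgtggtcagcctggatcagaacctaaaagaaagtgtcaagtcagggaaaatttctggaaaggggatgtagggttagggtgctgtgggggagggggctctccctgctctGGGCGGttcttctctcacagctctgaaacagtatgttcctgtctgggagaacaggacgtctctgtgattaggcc
C3: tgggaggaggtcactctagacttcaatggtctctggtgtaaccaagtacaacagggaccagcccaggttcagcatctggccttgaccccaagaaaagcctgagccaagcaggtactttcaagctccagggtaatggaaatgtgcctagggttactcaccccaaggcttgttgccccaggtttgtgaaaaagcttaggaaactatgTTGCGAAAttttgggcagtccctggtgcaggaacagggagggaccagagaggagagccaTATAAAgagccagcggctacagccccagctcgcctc
Cd55: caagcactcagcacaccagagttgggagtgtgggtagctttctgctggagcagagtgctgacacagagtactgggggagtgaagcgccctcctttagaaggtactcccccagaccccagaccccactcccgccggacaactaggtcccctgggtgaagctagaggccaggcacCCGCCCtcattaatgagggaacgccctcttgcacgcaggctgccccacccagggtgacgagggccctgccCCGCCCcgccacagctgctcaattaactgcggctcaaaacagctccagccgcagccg

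The PU.1 core, named for a factor of the myeloid lineage, matched once each in C1qb and C1qc, and also in C1ra, whose window is not printed, and 28.3% of all 32851 promoter windows of this length hold it. The Cd55 window held the GC box at bases 174 to 179 and 244 to 249, and 35.7% of windows hold it. The C3 window held a C/EBP match at bases 206 to 213 (10.8% of windows). It also matched the TATA box letters at bases 265 to 270 (13.6%), which lies after the annotated transcription start and not before it. GAS, a motif of interferon response, matched in the C1ra window and in none of the 4 printed ones, which were picked after the values were seen, and ISRE had no match in the windows of the 6 members. They are held by 8.3% (GAS) and 3.44% (ISRE) of all windows. The Cd55 window was also the richest in G and C of those shown, at 63.3%, against a median of 52.67% over all windows.

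Levels were compared between genes per length, as RPKM, the reads scaled to exon length and library depth, averaged over the 6 libraries. Serping1, which encodes C1 inhibitor, had the highest mean at 38.94 RPKM (35.66 to 45.6), followed by C1qa at 36.2 (29.57 to 41.3), C1qb at 28.25 (24.12 to 31.47) and C3 at 27.94 (20.75 to 45.07). C1qc had 16.83 RPKM (13.6 to 19.72), C1s1 had 6.54 (5.744 to 7.756), C1ra had 3.7 (3.399 to 4.246), C4b had 3.377 (2.1 to 5.155) and Cd55 had 1.499 (1.137 to 2.003). Ranges over the libraries overlapped between Serping1 and C1qa, C1qa and C1qb, C1qb and C3, and C1ra and C4b, so the order of those neighbours is not settled by the spread. C1qa was nonetheless above C1qb in 6 of 6 libraries, while C1ra was above C4b in 3 of 6. With the longest coding transcript as length, C1qc was at 27.02 RPKM, close to C1qb and C3, Serping1 at 51.21 and Cd55 at 2.872, so the lower level of C1qc depends on which exons are counted in its length.

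**Figure D1:**
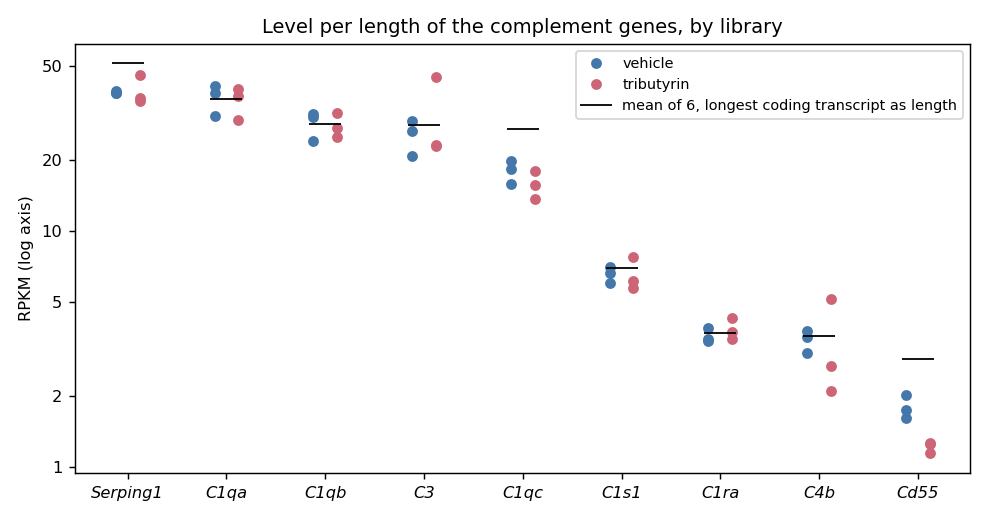
RPKM (log axis) of the 9 complement genes in each vehicle and Tributyrin library, ordered by their mean, with black bars for the mean of the 6 libraries when the longest coding transcript is the length. Serping1, C1qa, C1qb and C3 lie between 20.75 and 45.6 RPKM, Cd55 is lowest, and the black bar of C1qc (27.02) lies above all its points.

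To ask whether Tributyrin changed these genes in the WD-fed heart, edgeR's quasi-likelihood test was fitted over all 14133 genes with enough reads. All 9 complement genes passed that filter, with at least 139 reads in every library. At a false discovery rate (FDR) of 10% edgeR called 0 of the 9 genes, and 0.0% of all genes tested. DESeq2 without a prior called 0 of the 9 too, and 0.0835% of the 13179 genes it gave an adjusted p, and limma-voom called 0 of the 9 and 0.0% of all genes. At an unadjusted p under 0.05 in edgeR, 1 of the 9 was past the threshold, Cd55, which was lower with Tributyrin. Over all genes tested 4.25% were past it, 2.28% lower and 1.97% higher. DESeq2 also had 1 of the 9 under 0.05, where 1.8% of its 25578 genes were. That set keeps genes with few reads, so its share is not on the base of edgeR's. Limma-voom had 1 of the 9, where 4.28% of the 14133 genes were. Of the 9, 4 had a positive and 5 a negative log2 fold change (Tributyrin over vehicle), with a median of -0.03 against -0.001 over all genes tested, of which 50.4% were below 0. Values in single libraries are given below as normalized counts, which are reads divided by the DESeq2 size factor of the library. In bulk RNA, fewer cells of a type and less RNA per cell cannot be told apart.

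**Figure D2:**
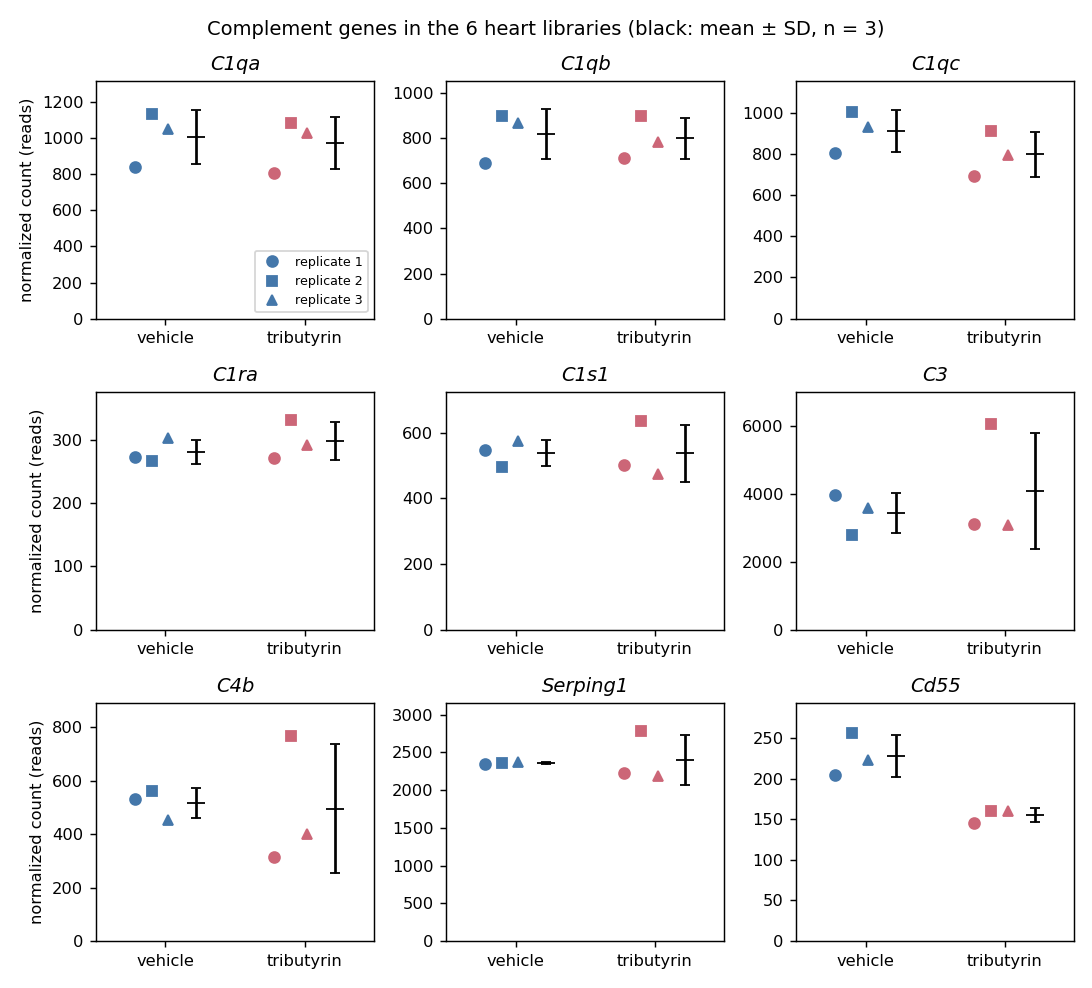
Normalized counts (reads) of each complement gene by group, with a marker per replicate and black bars for mean ± SD (n = 3). Cd55 is the one gene whose groups do not overlap, and 1 Tributyrin mouse (square) lies far above the others for C3 and C4b.

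Cd55 was the exception among these genes. Its normalized counts were 204.8, 255.9 and 222.4 in vehicle replicates 1, 2 and 3 (mean 227.7 ± 25.97, SD, n = 3). The Tributyrin replicates 1, 2 and 3 held 144.9, 159.9 and 159.5 (mean 154.8 ± 8.513, SD, n = 3). Every mouse given Tributyrin lay below every mouse given vehicle, as was so for 4.64% of all genes tested, and 8.92% of genes had groups that did not overlap in either direction. The means differed by -72.91 normalized counts (standard error 15.78), or -32.02% of the vehicle mean. A two-sided exact permutation test gave p = 0.1, and no smaller p is possible with 3 mice in each group.

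In edgeR's quasi-likelihood fit Cd55 had a log2 fold change of -0.56 (standard error 0.127, 95% interval -0.842 to -0.278) and an unadjusted p of 0.00122. By that p it stood at rank 16 of the 14133 genes, and its adjusted p was 0.999 with Benjamini-Hochberg adjustment. It was thus not past an FDR of 10%, although its difference exceeded the spread between mice. DESeq2 without a prior gave an adjusted p of 0.374 for Cd55. With low-count genes kept in the edgeR fit the adjusted p was 0.0362, at which Cd55 would be called, as were 0.653% of 25581 genes. In that fit 2 of the 9 genes, Cd55 and C3, had an unadjusted p under 0.05, where 4.6% of genes did. There the standard errors of C3 and C4b were 0.0877 and 0.114, against 0.236 and 0.266 with the filter. C3 and C4b varied most between mice, so p-values without the filter do not weigh the spread of single genes as the chosen fit does. With the replicate number as a block 0 of the 9 passed 10% (0.0142% of genes), and 2, Cd55 and C1qc, had an unadjusted p under 0.05 (5.17% of genes). Leaving out any one mouse kept the log2 fold change of Cd55 between -0.63 and -0.46. Atrial markers, whose sum was highest in vehicle replicates 1 and 2, had 4 of 5 tested lower with Tributyrin at an unadjusted p under 0.05 in edgeR (2.28% of all genes were). Their groups overlapped in 5 of 5, and the sum in vehicle replicate 3 (53.84 CPM) lay inside the Tributyrin range (31.04 to 64.36). Nppa was instead highest in vehicle replicate 3. Of 12 fibroblast markers 3 were higher and 9 lower with Tributyrin, and 4 of the lower, Lum among them, had an unadjusted p under 0.05. The part of atrial or fibroblast markers in the difference in Cd55 was not tested. The near-copy Cd55b, 16017 bases away on chromosome 1, had 0 reads in all libraries, so summing both left Cd55 at -0.56. How short reads that fit both copies were counted is not stated.

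Of the 5 other tested genes for membrane proteins that restrain complement, 2 were higher and 3 lower with Tributyrin, and 0 had an unadjusted p under 0.05. Cd59a, which blocks the membrane attack complex, had 1928 ± 159.3 normalized counts in vehicle mice and 2147 ± 399.8 in Tributyrin mice (SD, n = 3 each), a log2 fold change of 0.16 (standard error 0.123). Cr1l, the rodent regulator also called Crry, which acts on C3 and C4 fragments, had 1272 ± 40.15 and 1322 ± 43.83 (SD, n = 3), a log2 fold change of 0.06 (0.07). Both sat well above Cd55 in level per length, at 42.8 RPKM for Cd59a and 4.768 RPKM for Cr1l against 1.499 RPKM. The groups overlapped for both genes.

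The C1q chains showed no separation of the groups. C1qa had 839.8, 1131 and 1050 normalized counts in vehicle replicates 1, 2 and 3 and 807.9, 1083 and 1027 in Tributyrin replicates 1, 2 and 3. C1qb had 690.2, 896.4 and 864.7 with vehicle and 713.5, 897.3 and 784.7 with Tributyrin. In both genes replicate 1 of each group was the lowest of its group, and the groups overlapped. The log2 fold change was -0.05 for C1qa (standard error 0.131, 95% interval -0.342 to 0.241) and -0.03 for C1qb (standard error 0.118, 95% interval -0.295 to 0.229). Neither sign was stable, since leaving out Tributyrin replicate 1 moved them to 0.07 and 0.05.

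C1qc, which encodes the C chain, had 801.4, 1003 and 929.3 normalized counts in vehicle replicates 1, 2 and 3 and 690.1, 909.2 and 793.9 in Tributyrin replicates 1, 2 and 3. The groups overlapped, and the log2 fold change was -0.19 (standard error 0.116, 95% interval -0.45 to 0.066), at an unadjusted p of 0.13 from edgeR's quasi-likelihood fit. Its adjusted p was 0.999, and the sign was negative with every mouse left out (-0.30 to -0.09). Set against C1qa in the same library, C1qc was at 0.954, 0.887 and 0.885 with vehicle and at 0.854, 0.84 and 0.773 with Tributyrin. The ratio averaged 0.909 ± 0.0394 with vehicle and 0.822 ± 0.0432 with Tributyrin (SD, n = 3 each), and the groups did not overlap. Counting error alone gave each ratio a standard error between 0.0339 and 0.048, similar to those SDs. The closest values, vehicle replicate 3 (0.885, counting error 0.0444) and Tributyrin replicate 1 (0.854, counting error 0.0428), lay within that error of each other. A two-sided exact permutation test gave p = 0.1, the smallest possible here, and the ratio was chosen after the values were seen.

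C1q was set against 15 macrophage markers, Csf1r, Mrc1, Cd163 and Adgre1 among them. All 15 had reads in every mouse, and they summed to 260.3 to 288.6 CPM with vehicle and 247.1 to 298.4 CPM with Tributyrin. The 3 C1q chains together made 0.341, 0.399 and 0.407 normalized counts per macrophage marker count in vehicle replicates 1, 2 and 3, and 0.341, 0.37 and 0.358 in Tributyrin replicates 1, 2 and 3. Those values overlapped between groups. Of the macrophage markers 5 were higher and 10 lower with Tributyrin, and 1 of 15 had an unadjusted p under 0.05, where 4.25% of all genes did. It was Lyz2, which encodes lysozyme, at a log2 fold change of 0.17 (standard error 0.074).

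C1ra and C1s1 encode the proteases of the C1 complex. C1ra had 273.4, 266.7 and 303.1 normalized counts with vehicle and 272.1, 331.7 and 292.5 with Tributyrin, a log2 fold change of 0.09 (standard error 0.115, 95% interval -0.161 to 0.347). C1s1 had 546.7, 495.5 and 574.0 with vehicle and 501.2, 636.0 and 473.8 with Tributyrin, a log2 fold change of 0.00 (standard error 0.122, 95% interval -0.269 to 0.271). The mice given Tributyrin spread on both sides of those given vehicle for C1s1. Reads of the near-copies C1rb and C1s2 were at most 1 in a library, and the counting of short reads that fit both copies is not stated.

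Serping1 encodes the inhibitor of those proteases. Its normalized counts were 2353, 2354 and 2379 in the vehicle mice, 2362 ± 14.72 on average (SD, n = 3), a very narrow spread. The Tributyrin mice held 2226, 2779 and 2185, on average 2397 ± 331.3 (SD, n = 3), so that 2 mice lay below the vehicle mice and 1 above. The log2 fold change was 0.02 (standard error 0.096, 95% interval -0.189 to 0.235). The sign turned to -0.10 without Tributyrin replicate 2 and to -0.05 with library size alone as scaling.

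C3 and C4b, the substrates of the cascade, varied most between mice. C3 had 3963, 2809 and 3584 normalized counts in vehicle replicates 1, 2 and 3, with a mean of 3452 ± 588.5 (SD, n = 3). It had 3134, 6075 and 3088 in Tributyrin replicates 1, 2 and 3, with a mean of 4099 ± 1711 (SD, n = 3). Tributyrin replicate 2 was above all other mice, and the remaining Tributyrin mice lay inside the vehicle range. The log2 fold change of C3 was 0.25 (standard error 0.236, 95% interval -0.272 to 0.774), and it turned to -0.15 without that mouse.

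C4b had 531.1, 563.7 and 453.5 normalized counts in vehicle replicates 1, 2 and 3 (516.1 ± 56.65, SD, n = 3). It had 314.2, 769.4 and 400.4 in Tributyrin replicates 1, 2 and 3 (494.6 ± 241.8, SD, n = 3), so the Tributyrin mice lay on both sides of the vehicle range. The log2 fold change was -0.06 (standard error 0.266, 95% interval -0.649 to 0.53). Without Tributyrin replicate 2 it was -0.54, with an unadjusted p of 0.003765 and a Benjamini-Hochberg adjusted p of 0.388 in edgeR's quasi-likelihood fit. In that fit 3 of the 9 genes, Cd55, C4b and C1qc, had an unadjusted p under 0.05, where 9.56% of genes did, and 0 passed 10%, where 0.0141% did. Without Tributyrin replicate 1 it was 0.19. C4a, a near-copy on the same strand 65209 bases away, had at most 6 reads in a library, and adding them moved the value of C4b from -0.059 to -0.0504. The counting of short reads that fit both C4a and C4b is not stated, so the sum may miss such reads.

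**Figure D3:**
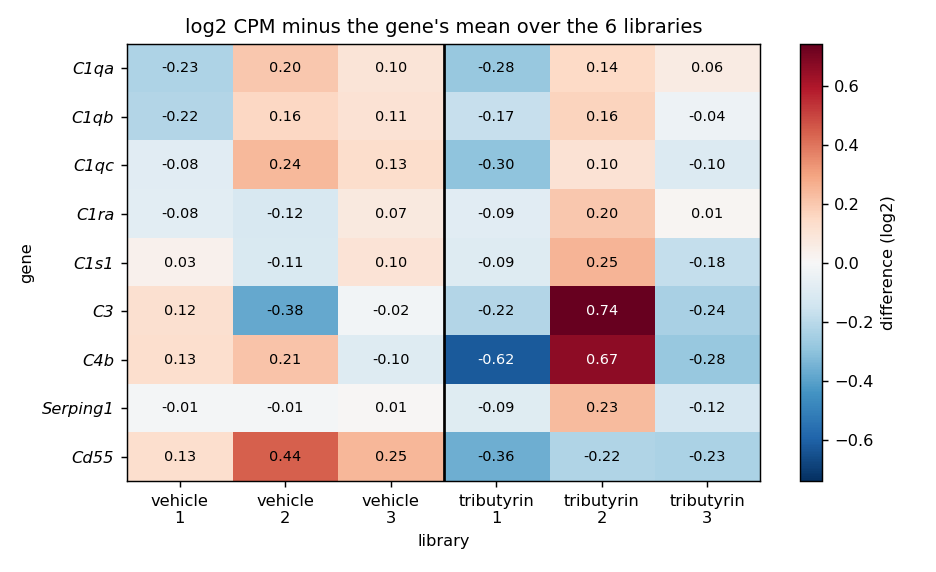
Log2 CPM of each complement gene minus its mean over the 6 libraries, by library, with vehicle left and Tributyrin right of the line. Tributyrin replicate 2 stands out for C3 (0.74) and C4b (0.67), replicate 1 of each group is low for C1qa (-0.23 and -0.28), and Cd55 is positive in all vehicle and negative in all Tributyrin libraries.

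Tributyrin replicate 2 held the highest normalized count for 6 of the 9 genes, C1qb, C1ra, C1s1, C3, C4b and Serping1, and vehicle replicate 2 for the other 3. The same Tributyrin mouse had the highest summed level of 12 fibroblast markers, at 2751 CPM, where the other libraries lay between 2192 and 2649 CPM. That sum is weighted to Gsn and Dcn, which had the most reads of the list. Gsn (43240 normalized counts), Dcn (13350) and Pdgfra (1196) were highest in that mouse. Every other fibroblast marker was highest in another library, such as Col1a1 with 2530 in vehicle replicate 2 against 2273. In Tributyrin replicate 2 the macrophage markers, at 298.4 CPM, the 6 adipocyte markers, at 2.894 CPM, and the 8 ventricular cardiomyocyte markers, at 51430 CPM, were also the highest in sum. The other libraries reached 288.6, 1.915 and 48860 CPM. No adipocyte marker had enough reads to pass the filter, and Ucp1 had 0. The part of these cell types in the levels of C3 and C4b was not tested. Of the fibroblast markers 3 were higher and 9 lower with Tributyrin (median log2 fold change -0.31). Of the 12, 4 had an unadjusted p under 0.05 and were lower (Col1a1, Lum, Mfap5 and Pi16), where 2.28% of all genes were. Of the 8 ventricular cardiomyocyte markers 6 were higher and 2 lower with Tributyrin (median log2 fold change 0.06). Of the 8, 3 had an unadjusted p under 0.05 in edgeR's fit and were higher, where 1.97% of all genes were.

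The genes whose pattern over the 6 libraries was most like a member were found by Pearson's r of log2 CPM over all genes tested, as a description over 6 libraries that share depth and tissue make-up. For C1qa they were Stard8, Fcgr3, Mtrr, Tuba1a and Clip3 (r from 0.982 to 0.994). C1qb stood at rank 75 of 14132 genes in likeness to C1qa (r of 0.946) and C1qc at rank 342 (0.872), while C3 stood at rank 5888. For C3 the genes were Adamts4, Stum, Smarcc2, Ccdc9 and Sfpq (0.975 to 0.995), with C1s1 at rank 71 (0.912), Serping1 at 106 (0.896) and C1ra at 344 (0.81). For C4b they were Ssrp1, Vps52, Pdcd11, Mmp19 and Myo7a (0.985 to 0.989), with Serping1 at rank 214 (0.872). For Cd55 they were Adcy7, Lum, C1qtnf6, Gm18666 and Loxl2 (0.988 to 0.998), and the nearest member was C1qc at rank 657 (0.759). C4b was about as like C1qc (0.716) as C3 (0.71), and Cd55 had an r with C3 of -0.289.

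The rest of the pathway was followed in 46 further genes. Of these, 8 had no read in any library, which allows each a level of up to 0.0187 CPM (3 reads in 160100223), by counting error alone. They were Mbl1, Mbl2 and Fcnb of the lectin pathway, C8a, C8b and C9 of the membrane attack complex, the regulator C4bp, and Cd55b. A further 12 had reads but too few for the test, among them Cfb and Hc, the genes of factor B and C5, with at most 4 and 2 reads in a library. Cfd, which encodes factor D and is known from adipocytes, had 0 to 16 reads. The other 26 genes were tested.

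By edgeR's quasi-likelihood test 0 of the 26 passed an FDR of 10%, and 1 had an unadjusted p under 0.05 where 4.25% of all genes tested did. That gene was Cpn2, the regulatory subunit of carboxypeptidase N, an enzyme that inactivates the C3a and C5a fragments. Cpn2 had 170.5, 129.5 and 149.1 normalized counts with vehicle and 116.0, 100.5 and 92.9 with Tributyrin. It was the 1 of the 26 whose groups did not overlap, where 8.92% of all genes tested had such groups (4.64% lower with Tributyrin). Its log2 fold change was -0.53 (standard error 0.16), its unadjusted p 0.0076 and its adjusted p 0.999 from edgeR's quasi-likelihood test. Leaving out any one mouse gave values from -0.63 to -0.42, and Cpn2 was not tested under the stricter filter of a mean CPM of at least 5. The catalytic partner Cpn1 had at most 2 reads in a library. Over the 26 genes 9 were higher and 17 lower with Tributyrin, with a median log2 fold change of -0.07.

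**Figure D4:**
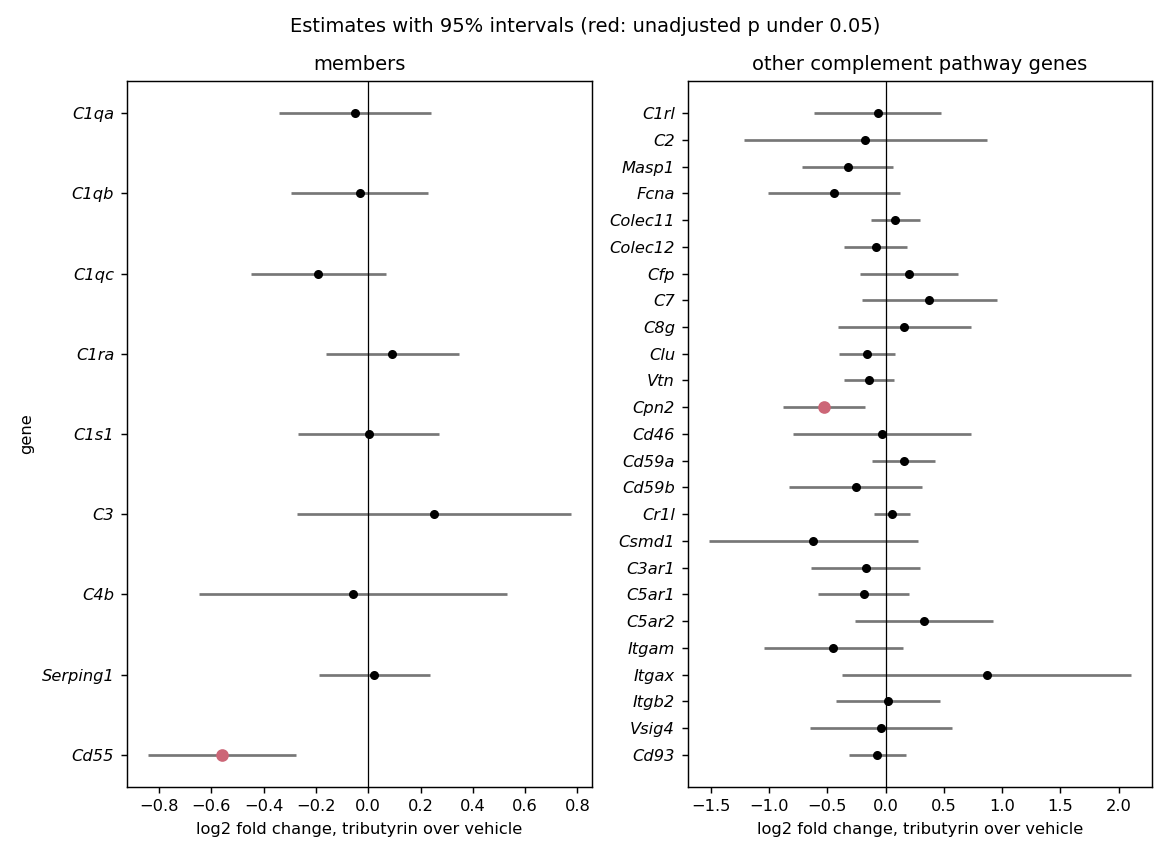
Log2 fold changes (Tributyrin over vehicle) with 95% intervals from edgeR for the 9 complement genes (left) and other tested genes of the complement pathway (right), red where the unadjusted p is under 0.05. Cd55 (-0.56) and Cpn2 (-0.53) are the red points, and intervals of the other genes shown include 0.

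The best-expressed genes of each step are given by their level per length. In the classical pathway C1rl and C2 were low, at 0.505 and 0.102 RPKM, with log2 fold changes of -0.07 (standard error 0.245) and -0.18 (0.469). In the lectin pathway the collectin Colec11 was at 9.832 RPKM and a log2 fold change of 0.08 (standard error 0.096), and the protease gene Masp1 at 1.995 RPKM with -0.33 (0.175). Cfp, which encodes properdin, was the single alternative pathway gene of this list that was tested, at 2.77 RPKM and 0.20 (0.19). In the terminal pathway C7 was at 1.722 RPKM with 0.37 (0.261) and C8g at 1.674 RPKM with 0.16 (0.258).

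Among soluble regulators Clu, which encodes clusterin, was the highest of all these genes per length, at 148.9 RPKM, and had 14210 ± 1697 normalized counts in vehicle mice and 12690 ± 1574 in Tributyrin mice (SD, n = 3 each). Its log2 fold change was -0.16 (standard error 0.108). Of the receptor genes Cd93 was highest at 11.06 RPKM and a log2 fold change of -0.07 (standard error 0.111), followed by C5ar1, the C5a receptor, at 1.713 RPKM with -0.19 (0.176). The receptor list held 8 tested genes, of which 3 were higher and 5 lower.

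Of 7 tested genes for proteins with C1q-like or C1q-binding parts, 1 had an unadjusted p under 0.05, where 4.25% of all genes did. C1qtnf4 had 147.6, 124.8 and 116.8 normalized counts with vehicle and 146.8, 173.6 and 166.3 with Tributyrin, so the groups overlapped only between 147.6 and 146.8. Its log2 fold change was 0.32 (standard error 0.143), with an unadjusted p of 0.0472 from edgeR's quasi-likelihood fit and an adjusted p of 0.999. The unadjusted p was above 0.05 with library size alone (0.105), with DESeq2 (0.0954), with the replicate block (0.0638), and without vehicle replicate 2 (0.119) or 3 (0.142) or Tributyrin replicate 2 (0.135) or 3 (0.0902), by edgeR unless named otherwise.

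**Figure D5:**
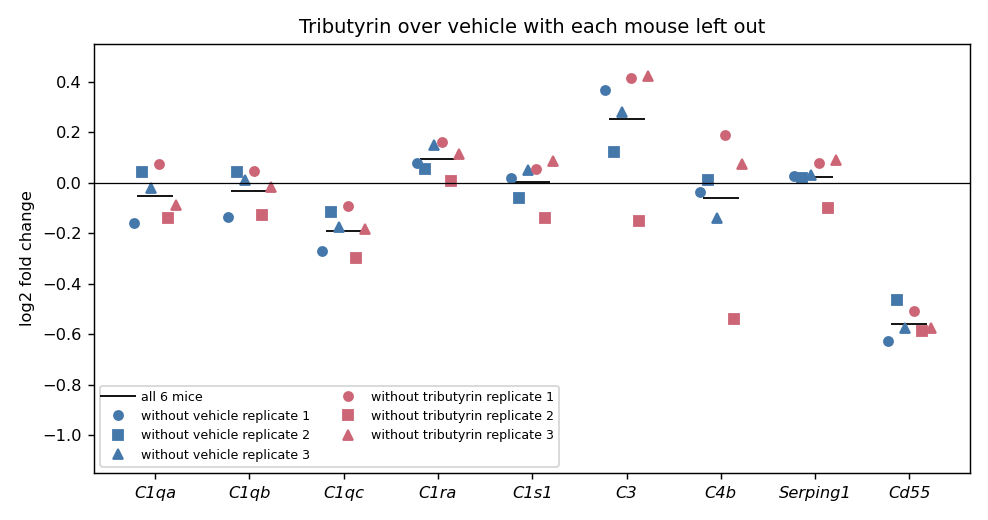
Log2 fold change of each complement gene (Tributyrin over vehicle) with all 6 mice (black bar) and after leaving out any one mouse (coloured markers). Cd55 stays between -0.63 and -0.46, whereas C4b runs from -0.54 to 0.19 and C3 from -0.15 to 0.42.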

How the data were processed

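Heart ventricle RNA of 3 WD-fed mice given Tributyrin and 3 given vehicle was measured by stranded mRNA sequencing, and the groups follow the sample labels. The authors deposited whole-number read counts per Ensembl gene, without normalization. Before that, by their methods and processing notes, they had trimmed adapters (cutadapt 1.13), discarded low-quality and ribosomal reads, mapped the rest to mm10 (STAR) and counted with HTSeq 0.6.1p1. Which annotation release and strand setting they used is not given in the sources used here. Names, positions and exon lengths were taken from GENCODE M21 (54165 of 54232 identifiers matched).

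The groups were compared with edgeR 4.0.16 (R 4.3.3) by its quasi-likelihood test with TMM scaling, no covariate, filterByExpr (at least 10 counts per library by its rule and 15 in total), and Benjamini-Hochberg adjustment over all genes. The p-values of this test set the difference between groups against the spread between these mice, estimated with information shared across genes. Without the filter on low counts the spread of single genes had less weight, and C3 had a standard error of 0.0877 against 0.236. Standard errors were taken from the F statistic. Library totals ran from 20369746 to 32734485, so that counting error alone gave a relative SD of at most 8.48% for Cd55 and at most 6.4% for the other 8 genes. Library pairs differed beyond sampling noise (chi-square per degree of freedom at least 7.4). Alternatives used DESeq2 1.42.0, limma-voom (limma 3.58.1), other scalings and filters, a robust prior, the replicate number as a block, near-copies summed, and each mouse left out. Python 3.11.15 with scipy 1.17.1 gave exact tests. The steps were tested on simulated data.

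All 9 genes were described in full. Other pathway genes were named where the unadjusted p was under 0.05 or where they were among the 2 best expressed per length of their list, and undetected genes and near-copies were named outside this rule. Some genes that the rule would name are not reported here. The members and lists were chosen with earlier results of these data known, and the motifs and the printed promoters after the values were seen.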

Additional observations from a re-analysis of the deposited data

How the results depend on the processing

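Over 16 alternatives, 123 of 144 values of the 9 genes kept their sign and their side of an FDR of 10%, 20 changed sign and 1 passed the threshold. Cd55, C1qc and C1ra kept their sign in all. Cd55 passed 10% without the filter on low counts (log2 fold change -0.56, adjusted p 0.0362, edgeR), and its adjusted p lay between 0.359 and 0.9999 in the other alternatives. In the fit without the filter the spread of single genes between mice had less weight. C1s1, at 0.0011 in the chosen fit, turned to -0.001 with RLE size factors, -0.068 with library size alone, -0.0029 with a mean CPM of at least 5, -0.0006 and -0.0004 with DESeq2 without and with a prior, -0.0052 with the replicate block and -0.0016 with near-copies summed. Serping1 turned to -0.047 with library size alone. With each mouse left out the log2 fold changes ran from -0.16 to 0.0725 for C1qa, -0.135 to 0.0482 for C1qb, -0.1415 to 0.0866 for C1s1, -0.15 to 0.42 for C3, -0.54 to 0.19 for C4b and -0.0993 to 0.0891 for Serping1. The median over the 9 genes, -0.0326, turned positive without vehicle replicate 2 (0.0195) or 3 (0.0093) and without Tributyrin replicate 1 (0.0725) or 3 (0.0729), and was lowest without Tributyrin replicate 2 (-0.1415).

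The count of the 9 genes past 10% was 1 without the filter and 0 in the other alternatives. At an unadjusted p under 0.05 it was 2 without the filter (Cd55 and C3), 2 with the replicate block (Cd55 and C1qc), and from 1 to 3 with each mouse left out, 3 without Tributyrin replicate 2 (Cd55, C4b and C1qc). For the other pathway genes that count was 2 with library size alone, 4 without the filter, 0 with a mean CPM of at least 5, 3 with the block, and from 1 to 4 with each mouse left out. Over all genes 167 passed 10% without the filter, 11 with DESeq2 without a prior, 9 with a prior, 2 with the replicate block and from 0 to 3 with each mouse left out. The genes with an unadjusted p under 0.05 numbered 600, then 1178 without the filter, 367 with a mean CPM of at least 5 (of fewer genes tested), and with each mouse left out from 389 (vehicle replicate 3 omitted) to 1360 (Tributyrin replicate 2 omitted). The cause was not tested. The deviations of same-numbered libraries correlated at 0.21, 0.04 and 0.01, and no pairing was assumed. Depth limits the genes with few reads, such as Cfb, Hc and Cfd.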

Other observations

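Interferon and acute phase genes, which include known inducers or companions of complement expression, were set beside the complement genes. Of 10 interferon response genes 7 were higher and 3 lower with Tributyrin. Igtp had a log2 fold change of 0.57 (standard error 0.147) and an unadjusted p of 0.00299 in edgeR's quasi-likelihood fit. Igtp encodes an interferon-inducible GTPase, and its annotation overlaps that of Irgm2 on the same strand, which had a log2 fold change of 0.36 (standard error 0.178). Igtp had 245.3, 279.9 and 298.2 normalized counts with vehicle and 417.1, 474.2 and 322.4 with Tributyrin. The groups did not overlap, as was so in either direction for 8.92% of all genes tested. Of the acute phase and NF-kB list 4 of 10 genes were tested, and Lcn2, which encodes lipocalin 2, had an unadjusted p of 0.0148 in edgeR's model and a log2 fold change of 0.61 (standard error 0.21). Its normalized counts were 154.9, 112.4 and 100.6 with vehicle and 188.0, 142.5 and 235.2 with Tributyrin, so the groups overlapped. None of these lists held a gene past an FDR of 10% by edgeR (0 genes), where 0.0% of all genes tested were.

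Endothelial markers (8 genes) summed to 948.9 to 968.9 CPM with vehicle and 963.9 to 1099 CPM with Tributyrin, mesothelial markers (4 genes) to 10.9 to 25.64 and 15.09 to 21.51 CPM, and erythroid markers (5 genes) to 490.2 to 696.3 and 383.1 to 941.3 CPM. Markers of lymphocytes and neutrophils (7 genes) summed to at most 1.423 CPM in any library.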
